A study of Homo sapiens with 24 samples.

Results

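The genes described here build and police the mitotic spindle: 51 genes of the centromere, the kinetochore, the spindle checkpoint, the mitotic kinases, the CDC25 phosphatases, anaphase and cytokinesis, with the proliferation markers MKI67 and TOP2A and the transcription factor FOXM1. They were chosen by name with earlier results of these data known, so their counts beside those of all genes are not an independent test. Of the 51, 50 were measured among 18244 genes in all. Each was taken as the mean of the probe sets that carry its symbol alone. The only probe set of PTTG1 was shared with PTTG3P and was left out. The kinetochore is the protein assembly that ties a chromosome to spindle microtubules: its inner layer sits on nucleosomes with the histone variant CENPA, and its outer layer holds the microtubule. The spindle checkpoint halts anaphase until every kinetochore is attached, and the kinases PLK1, AURKA, AURKB and TTK drive and correct the attachments. Most of these genes are transcribed in a burst late in the cell cycle, so their summed level is widely read as a measure of how many cells of a culture are cycling.

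Melatonin, the hormone of the pineal gland, was given to 4 human gastrointestinal cancer lines at 2.5 mmol/L for 24 h: the gastric carcinoma line HGC-27, the colorectal carcinoma line HCT-8, and the hepatocellular carcinoma lines Huh-7 and HepG2, all of them called wild type in the labels. The study's methods describe controls kept in ethanol and run alongside the treated cultures, whereas the labels give the controls as melatonin for 0 h, so that time in culture and melatonin cannot be told apart from the labels. Each line had 3 control and 3 melatonin arrays, 24 arrays in all, hybridised with RNA of whole cultures. The study's methods call the 3 arrays biological replicates, while the labels give only a number to each. ALB, the main plasma protein of hepatocytes, had a mean control log2 intensity of 11.75 in HepG2 and 11.21 in Huh-7 against 1.11 in HGC-27 and 0.57 in HCT-8 cells, and LGALS4, a lectin of gut epithelium, had 8.10 in HCT-8 against 1.07 to 1.46 elsewhere. Of the other colorectal markers, CDX1 and KRT20 were also highest in HCT-8. CDX2, VIL1, CDH17, GPA33, EPCAM and CDH1 had higher values in Huh-7 than in HCT-8. By percentile among the genes of a line, only VIL1 and CDH17 were higher in Huh-7, and the others were higher in HCT-8. CDX2, for example, had 7.63 in Huh-7 and 6.84 in HCT-8, at percentiles of 93.4 and 94.3 among all genes. In HGC-27 the epithelial markers EPCAM (1.09), KRT8 (1.5) and KRT18 (1.39) were near the bottom of the scale. So were the gastric markers TFF1 (1.33) and CLDN18 (1.35). The RNA of that line thus did not show the epithelial and gastric markers of its labelled origin. Its mesenchymal markers were mixed. VIM stood at 11.94, COL1A1 at 6.32 and ZEB1 at 6.04, but COL1A2 at 3.18, FN1 at 2.47 and CDH2 at 1.5. The array values of each line were on a scale of their own, with array medians of 2.13 to 2.15 in HCT-8 cells and 3.27 to 3.33 in Huh-7, so the levels set across lines here are not tested. Of the leukocyte markers, PTPRC lay at 0.64 to 1.03 and CD3E at 1.25 to 2.14 in all lines. LYZ, however, stood at 10.44 in HepG2 and 8.02 in Huh-7. CD68 reached 5.28 and CD14 3.88 in Huh-7. In Huh-7, 6 of 9 hepatocyte, 3 of 6 gastric, 4 of 9 colorectal, 3 of 5 epithelial and 3 of 5 leukocyte markers were lower with melatonin at a limma adjusted p under 0.05 and 3 of 6 mesenchymal markers higher, where 27.4% of all genes were lower and 23.8% higher. CDH1, on both the epithelial and the colorectal list, was higher in Huh-7, and 1 of 6 mesenchymal markers was lower. In HCT-8, 5 of 9 colorectal markers, 2 of 9 hepatocyte and 2 of 6 gastric markers were lower, where 15.0% of all genes were. There 2 of 5 epithelial, 1 of 6 mesenchymal and 1 of 5 leukocyte markers were higher, where 16.6% of all genes were. In HGC-27, 2 of 6 mesenchymal markers were lower and 1 higher, where 18.6% and 20.9% of all genes were. Of its 5 epithelial markers 1 was lower, and EPCAM, also on the colorectal list, was higher. In HepG2, 2 of 9 hepatocyte markers were lower, where 3.68% of all genes were. Leaving out 1 HepG2 array described next, 4 of 5 epithelial, 3 of 9 colorectal, 2 of 6 gastric, 2 of 9 hepatocyte and 2 of 5 leukocyte markers were lower in that line, where 14.9% of all genes were. With it left out, 1 of 6 mesenchymal markers was higher, where 16.5% of all genes were. The part of these markers in the results on the mitotic genes was not tested.

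One array, the one labelled HepG2 melatonin replicate 1, was unlike the other 23. Its 3′ probe set of ACTB exceeded the 5′ probe set by 8.34 log2 units and that of GAPDH by 7.72, against 0.08 to 0.72 and -0.18 to 0.07 on the other arrays. Its correlation with the other HepG2 arrays over all genes was 0.938 to 0.953, while each of the others had a highest correlation of 0.998. HepG2 counts and the HepG2 values of the genes named by rule are therefore given with and without it.

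Most of the mitotic genes were lower with melatonin in the gastric, colorectal and Huh-7 lines, and fewer passed the test in HepG2. In HGC-27, 36 of the 50 were lower and 3 higher at a limma adjusted p under 0.05, where 18.6% of all genes were lower and 20.9% higher. In HCT-8, 36 were lower and 1 higher, against 15.0% and 16.6% of all genes. In Huh-7, 44 were lower and 3 higher, against 27.4% and 23.8%. In HepG2, 19 were lower and none of the 50 higher, against 3.68% and 3.87%, and without melatonin replicate 1 the HepG2 count was 43 lower and 0 higher, against 14.9% and 16.5%. The median log2 fold change over the 50 genes was -0.37 in HGC-27, -0.40 in HCT-8 cells, -0.76 in Huh-7 and -0.60 in HepG2, beside -0.014, -0.034, -0.063 and 0.041 over all genes. A fall of at least 1.5-fold with the same adjusted p was found for 10 of the genes in HGC-27, 13 in HCT-8 cells, 31 in Huh-7 and 17 in HepG2 (29 without melatonin replicate 1). Leaving out any other HepG2 array lowered the count of 19 HepG2 genes that passed the test, to 0 without control replicate 1, 2 or 3, 5 without melatonin replicate 2 and 12 without replicate 3, whereas with 1 array left out the counts stayed at 35 to 37 in HGC-27, 33 to 38 in HCT-8 cells and 43 to 44 in Huh-7.

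**Figure D1:**
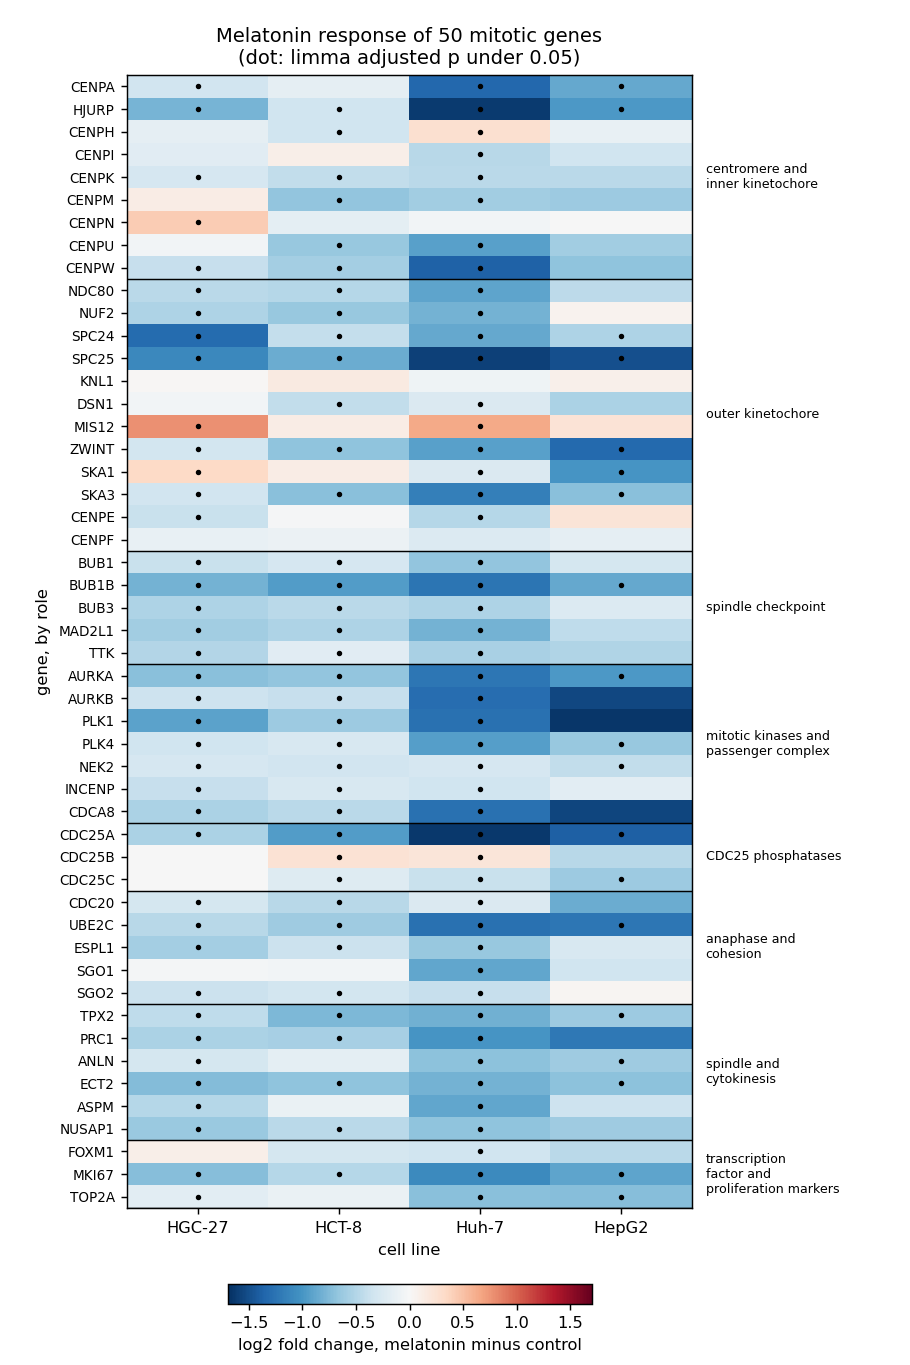
Log2 fold change, melatonin minus control, of the 50 measured mitotic genes (rows, by role) in the 4 cell lines (columns), with blue for lower and red for higher and a dot where the limma adjusted p was under 0.05. Blue fills most cells, with 36, 36, 44 and 19 dots of lower genes in the gastric, colorectal, Huh-7 and HepG2 columns, and MIS12 is the reddest row.

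The median of the set was lower on each melatonin array. On the melatonin arrays their median difference from the control mean of the line was -0.43, -0.37 and -0.37 in HGC-27, -0.38, -0.37 and -0.36 in HCT-8 cells, and -0.76, -0.73 and -0.75 in Huh-7. In HepG2 it was -0.45 on melatonin replicate 1, -0.74 on replicate 2 and -0.57 on replicate 3. All 12 melatonin arrays lay below all 12 control arrays, which stayed within 0.05 of their own line's mean. For 38 genes in HGC-27, 39 in HCT-8 cells, 44 in Huh-7 and 32 in HepG2, each of the 3 melatonin arrays was below each of the 3 controls, as for 24.2%, 24.2%, 33.2% and 15.1% of all genes. RNA of a whole culture does not separate fewer cells in mitosis from less of each RNA per cell. The arrays carried 100 probe sets for external spike-in RNAs, but only 1 of them was above the median in every line. The study's methods do not describe adding spike-in RNAs. Centring on that 1 probe set moved the median of all genes by 0.15 in HGC-27, 0.24 in HCT-8 cells, -0.093 in Huh-7 and -0.24 in HepG2. It left 17 of the mitotic genes lower in HGC-27, 11 in HCT-8 cells, 45 in Huh-7 and 20 in HepG2. Relative to the median of all genes, which either centring shifts by the same amount, the median of the mitotic genes was -0.35 in HGC-27, -0.36 in HCT-8 cells, -0.69 in Huh-7 and -0.64 in HepG2. Over all genes the lower share of the calls was 47.1% in HGC-27, 47.5% in HCT-8 cells, 53.6% in Huh-7 and 48.7% in HepG2 on the deposited scale. It was 66.9%, 50.3%, 65% and 56.6% after centring each array on its median, and 18.3%, 6.3%, 64.7% and 86.7% after the spike-in centring. Under the spike-in centring the higher genes were CENPN, MIS12 and SKA1 in HGC-27, CDC25B in HCT-8 cells and MIS12 in Huh-7.

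**Figure D2:**
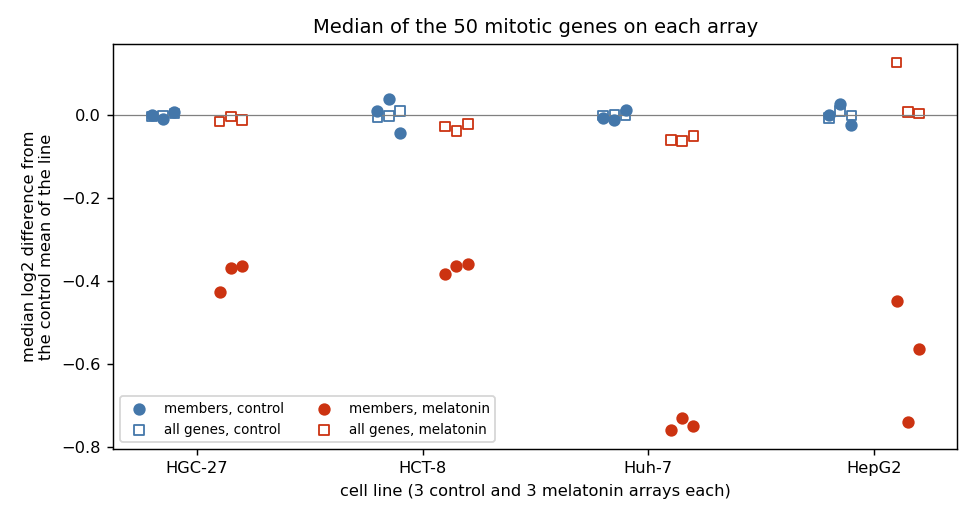
Median log2 difference of the 50 mitotic genes (filled circles) and of all genes (open squares) from the control mean of the line, on each of the 24 arrays, blue for control and red for melatonin. The 3 Huh-7 melatonin arrays lie between -0.76 and -0.73 and the 3 HGC-27 ones between -0.43 and -0.37.

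Lower calls in all 4 lines were shared by 14 of the 50 genes, where 1.5% of all genes were lower in all 4. They were HJURP, SPC24, SPC25, ZWINT, SKA3, BUB1B, AURKA, PLK4, NEK2, CDC25A, UBE2C, TPX2, ECT2 and MKI67, which span the centromere, the outer kinetochore, the checkpoint, the kinases, ubiquitination and cytokinesis. Without HepG2 melatonin replicate 1 the count was 29 genes against 4.71% of all genes, without any one of the HepG2 controls it was 0, and without HepG2 melatonin replicate 2 or 3 it was 4 or 7. When probe sets were fitted singly and adjusted together, none of SKA3, BUB1B, PLK4 or NEK2 was called in HepG2. In the gastric, colorectal and Huh-7 lines together, 31 were lower in each, against 6.17% of all genes. Among the 50 genes, 38 had a negative log2 fold change in all 4 lines, as had 19.6% of all genes. The largest fall of a gene was in Huh-7 for 30 of them, in HepG2 for 14, in HCT-8 for 4 and in HGC-27 for 2.

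Many late cell cycle genes carry a cell cycle genes homology region (CHR), bound by MuvB complexes, and a CCAAT box, bound by NF-Y. RefSeq windows on GRCh38.p14, from 250 bases before to 50 after a transcript's start, were at hand for 41 of the 50 genes, 54 windows in all. Both strands were searched for a CHR, written TTTGAA or else TTTAAA, for the letters CCAAT, and for an E2F site, written TTTCCCGC, or with TTTGGCGC, or with TTTCGCGC, or with TTTGCCGC. A CHR was found in 33 of the 54 windows (61.1%) against 20% of 20496 windows of all genes, and a CCAAT box in 38 (70.4%) against 34.7%. E2F sites were in 6 windows (11.1%) against 4.2% of all. With the windows of a gene pooled, 22 of the 41 genes had both a CHR and a CCAAT box, 7 a CHR only, 10 a CCAAT box only and 2 neither. In CDC25B and PLK4 the CHR and the CCAAT box lay in different windows. A CHR overlapped a CCAAT box in CDCA8 and MKI67. Of the 48 CHR matches, 41.7% lay in the 50 bases before the start and 22.9% in the 50 from it on, against 16.1% and 8.5% of the matches in all windows. A site in overlapping windows of a gene was counted in each, as in ZWINT, CDC25C, SGO2 and ECT2, so the matches are not all distinct sites.

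**Figure D3:**
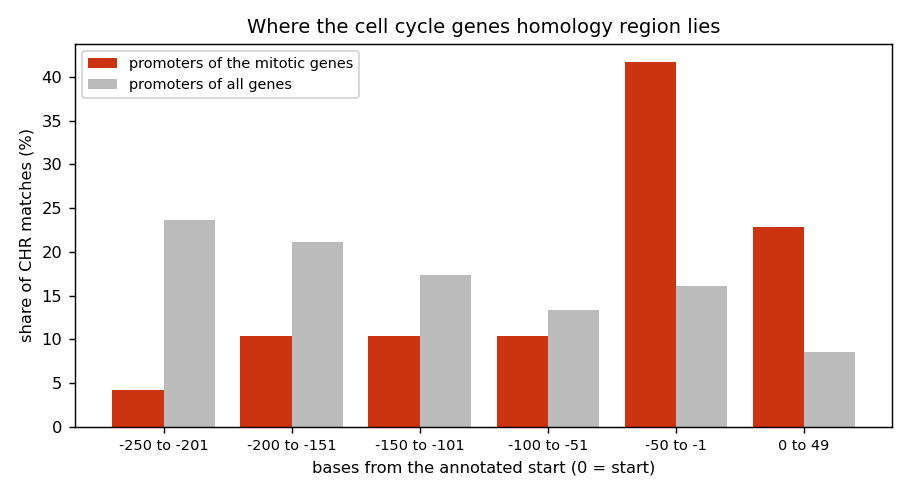
Share of CHR matches (%) by distance from the annotated start in bins of 50 bases, for the windows of the mitotic genes (red, 48 matches) and of all genes (grey, 5175 matches). The bin just before the start holds 41.7% of the matches of the mitotic genes and 16.1% of those of all genes. A site in overlapping windows of a gene is counted in each.

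The stretch from 120 bases before to 30 after the start is shown for 5 genes with a CHR and large falls, and for CDC25A and MIS12, which had none in their windows. They lie at chr2:168890401-168890550 (minus strand) for SPC25, chr15:40160949-40161098 (plus strand) for BUB1B, chr16:23678769-23678918 (plus strand) for PLK1, chr1:37692396-37692545 (plus strand) for CDCA8, chr10:128126394-128126543 (minus strand) for MKI67, chr3:48188388-48188537 (minus strand) for CDC25A and chr17:5486254-5486403 (plus strand) for MIS12. Capitals mark the motif matches on either strand, so that a CCAAT box on the other strand reads ATTGG.
SPC25: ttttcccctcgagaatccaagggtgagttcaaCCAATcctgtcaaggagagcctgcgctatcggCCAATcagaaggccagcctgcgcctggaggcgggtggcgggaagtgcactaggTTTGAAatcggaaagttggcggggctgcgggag
BUB1B: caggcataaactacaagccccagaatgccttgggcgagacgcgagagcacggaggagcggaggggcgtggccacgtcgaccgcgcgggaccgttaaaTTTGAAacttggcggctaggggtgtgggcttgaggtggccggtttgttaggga
PLK1: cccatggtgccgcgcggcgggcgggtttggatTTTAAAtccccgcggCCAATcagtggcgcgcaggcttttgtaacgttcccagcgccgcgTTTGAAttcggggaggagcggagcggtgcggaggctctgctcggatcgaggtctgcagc
CDCA8: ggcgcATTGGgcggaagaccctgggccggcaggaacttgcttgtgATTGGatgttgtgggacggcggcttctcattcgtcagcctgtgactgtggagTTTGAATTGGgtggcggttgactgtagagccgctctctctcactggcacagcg
MKI67: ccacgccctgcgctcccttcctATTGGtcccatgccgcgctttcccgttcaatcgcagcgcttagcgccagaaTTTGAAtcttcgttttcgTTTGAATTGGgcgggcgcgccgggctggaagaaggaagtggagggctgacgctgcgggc
CDC25A: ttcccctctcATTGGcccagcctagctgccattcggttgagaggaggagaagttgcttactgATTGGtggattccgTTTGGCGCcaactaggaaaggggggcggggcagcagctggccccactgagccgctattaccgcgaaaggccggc
MIS12: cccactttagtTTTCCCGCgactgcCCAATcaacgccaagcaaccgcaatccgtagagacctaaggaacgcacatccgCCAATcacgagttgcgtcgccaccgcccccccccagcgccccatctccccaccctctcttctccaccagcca
In BUB1B the CHR stands alone, in PLK1 and MKI67 there are 2, and CDC25A and MIS12 hold CCAAT boxes and an E2F site in place of a CHR.

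At the centromere and inner kinetochore, 4 of 9 genes were lower in HGC-27, 6 in HCT-8 cells, 7 in Huh-7 and 2 in HepG2 (7 without melatonin replicate 1). HJURP, the chaperone that loads CENPA onto centromeres, had in Huh-7 7.35, 7.40 and 7.41 on the control arrays and 5.75, 5.76 and 5.78 on the melatonin arrays, a log2 fold change of -1.62 ± 0.046 (SE, n = 3 against 3; adjusted p = 1.44e-07). In HepG2 HJURP had 6.49, 6.47 and 6.48 on the control arrays and 5.17, 5.53 and 5.79 on the melatonin arrays. The groups did not overlap in either liver line, and the HepG2 spread lay wholly on the melatonin side. HJURP had log2 fold changes of -0.79 ± 0.048 (adjusted p = 8.05e-06) in HGC-27, -0.34 ± 0.052 (adjusted p = 0.00142) in HCT-8 cells and -0.98 ± 0.16 (adjusted p = 0.0224) in HepG2. CENPW, a histone-fold subunit of the inner kinetochore, fell by 0.39 in HGC-27, 0.57 in HCT-8 cells and 1.37 in Huh-7 (adjusted p = 0.000748, 0.000289 and 4.13e-07). In HepG2 CENPW stood at -0.69 ± 0.18 (adjusted p = 0.0838) and, without melatonin replicate 1, at -0.89 ± 0.075 (adjusted p = 0.00015). CENPA itself was lower in HGC-27 (-0.32 ± 0.045), Huh-7 (-1.34 ± 0.061) and HepG2 (-0.87 ± 0.083), and in HCT-8 its value was -0.15 ± 0.052 (adjusted p = 0.0618). CENPK, CENPI, CENPM and CENPU, all subunits of the same layer, had Huh-7 values of -0.46 ± 0.074, -0.47 ± 0.073, -0.59 ± 0.055 and -0.92 ± 0.055. On all arrays CENPK was called lower in 3 lines, CENPM and CENPU in 2 and CENPI in 1. CENPM had 0.13 in HGC-27 and CENPI 0.10 in HCT-8, neither called. In HGC-27 the 2 probe sets of CENPU, fitted singly with limma, were called in opposite directions (-0.30, adjusted p = 0.0287, and 0.22, adjusted p = 0.022).

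Some inner kinetochore genes went the other way. CENPN, which binds CENPA nucleosomes, had 4.99, 5.01 and 4.96 on the control arrays and 5.50, 5.31 and 5.45 on the melatonin arrays in HGC-27, a rise of 0.43 ± 0.056 (adjusted p = 0.000399). Its values in the other lines did not pass the test, at -0.17 ± 0.059 in HCT-8 cells, -0.051 ± 0.053 in Huh-7 and -0.0015 ± 0.12 in HepG2. CENPH, a subunit of the constitutive centromere network, was called in opposite directions in different lines: its Huh-7 values were 6.97, 7.03 and 7.01 on the control arrays and 7.24, 7.28 and 7.30 on the melatonin arrays, and its HCT-8 values 6.41, 6.20 and 6.48 on the control arrays and 6.0, 6.03 and 6.05 on the melatonin arrays. The Huh-7 melatonin arrays were all above the controls and the HCT-8 ones all below them. The log2 fold changes of CENPH were 0.27 ± 0.048 (adjusted p = 0.00174) in Huh-7, -0.34 ± 0.076 (adjusted p = 0.00965) in HCT-8 cells, -0.15 ± 0.056 (adjusted p = 0.0652) in HGC-27 and -0.13 ± 0.15 (adjusted p = 0.684) in HepG2. With the spike-in scaling the Huh-7 rise became 0.17 (adjusted p = 0.239) and the HCT-8 fall -0.097 (adjusted p = 0.659). Such opposite calls were made for 2 of the 50 genes, CENPH and SKA1, and for 5.08% of all genes.

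At the outer kinetochore, the microtubule-binding layer, 7 of 12 genes were lower in HGC-27, 7 in HCT-8 cells, 9 in Huh-7 and 5 in HepG2 (9 without melatonin replicate 1). SPC25, a subunit of the NDC80 complex that anchors it to the inner layer, had the largest mean change of the whole set. The promoter printed for it holds a CHR and 2 CCAAT boxes. Its log2 values were 6.89, 6.90 and 7.02 on the control arrays and 5.76, 5.87 and 5.89 on the melatonin arrays in HGC-27. In HCT-8 they were 4.98, 4.84 and 5.15 on the control arrays and 4.08, 4.15 and 4.20 on the melatonin arrays. In Huh-7 they were 6.71, 6.74 and 6.75 on the control arrays and 5.12, 5.14 and 5.20 on the melatonin arrays. No melatonin array of SPC25 came near a control in those 3 lines, and the HCT-8 levels were the lowest before and after treatment. In HepG2 the SPC25 values were 6.05, 6.05 and 6.11 on the control arrays and 4.85, 4.18 and 4.70 on the melatonin arrays, again without overlap. The log2 fold changes of SPC25 were -1.10 ± 0.057 in HGC-27, -0.85 ± 0.082 in HCT-8 cells, -1.58 ± 0.049 in Huh-7 and -1.49 ± 0.18 in HepG2 (adjusted p = 4.52e-06, 0.000149, 1.92e-07 and 0.00998). That was a 2.14-fold fall in HGC-27, 1.80-fold in HCT-8 cells, 3.0-fold in Huh-7 and 2.82-fold in HepG2. SPC24, its partner in the complex, fell most in HGC-27 (-1.30 ± 0.071), and NDC80 and NUF2, the subunits that touch the microtubule, most in Huh-7 (-0.90 ± 0.067 and -0.80 ± 0.090).

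ZWINT, a partner of KNL1 that recruits checkpoint proteins, had log2 fold changes of -0.32 ± 0.044 in HGC-27, -0.68 ± 0.051 in HCT-8 cells, -0.92 ± 0.050 in Huh-7 and -1.32 ± 0.19 in HepG2 (adjusted p = 0.000547, 4.80e-05, 1.91e-06 and 0.0167). On the HepG2 arrays ZWINT had 6.98, 6.95 and 6.97 on the control arrays and 5.28, 5.59 and 6.06 on the melatonin arrays. All 3 melatonin arrays were below the controls and replicate 1 was the lowest of them. KNL1, the scaffold that holds BUB1 at the kinetochore, was called in none of the lines, with log2 fold changes of 0.023 ± 0.048 in HGC-27, 0.16 ± 0.072 in HCT-8 cells, -0.076 ± 0.064 in Huh-7 and 0.081 ± 0.27 in HepG2. Without HepG2 melatonin replicate 1 its value was -0.24 ± 0.069 (adjusted p = 0.0298). The single probe sets of KNL1 disagreed in limma fits. The one with the highest level fell in Huh-7 (-0.38, adjusted p = 0.00143). Another rose in HGC-27 (0.48, adjusted p = 0.00261), and another in HCT-8 cells from a low control level of 1.48 (0.57, adjusted p = 0.0227). CENPF, a large protein of the outer corona, was the other gene with no call (-0.12 ± 0.068 in HGC-27, -0.095 ± 0.069 in HCT-8 cells, -0.23 ± 0.095 in Huh-7 and -0.16 ± 0.36 in HepG2), and 31.3% of all genes had none. On HepG2 melatonin replicate 1 CENPF lay above the controls, and without that array its HepG2 value was -0.59 ± 0.084 (adjusted p = 0.00131). CENPE, the kinesin that carries chromosomes to the spindle's middle, fell in Huh-7 (-0.48 ± 0.053 (adjusted p = 0.000101)).

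SKA1, which keeps kinetochores on shrinking microtubule ends, rose in HGC-27 and fell in both liver lines. Its log2 values were 5.80, 5.91 and 5.93 on the control arrays and 6.21, 6.20 and 6.26 on the melatonin arrays in HGC-27. In Huh-7 they were 5.26, 5.10 and 5.20 on the control arrays and 4.92, 4.92 and 4.97 on the melatonin arrays. In HepG2 they were 4.96, 5.02 and 5.0 on the control arrays and 3.52, 4.17 and 4.30 on the melatonin arrays. The groups did not overlap in any of those lines, and in HCT-8 they did. For SKA1 the log2 fold changes were 0.34 ± 0.050 in HGC-27, 0.13 ± 0.085 in HCT-8 cells, -0.25 ± 0.056 in Huh-7 and -1.0 ± 0.21 in HepG2 (adjusted p = 0.000671, 0.284, 0.00606 and 0.0415). In the fit of all 24 arrays together the HGC-27 rise had an adjusted p of 0.0584 and the Huh-7 fall 0.132, and the HepG2 call was lost without any one HepG2 control (adjusted p = 0.163, 0.176 and 0.174) or without melatonin replicate 2 (0.0987). SKA3, of the same complex, was lower in all 4 lines, at -0.33 ± 0.053 in HGC-27, -0.71 ± 0.067 in HCT-8 cells, -1.16 ± 0.059 in Huh-7 and -0.71 ± 0.15 in HepG2. MIS12, the namesake subunit of the complex joining inner and outer kinetochore, was singled out after its values were seen, as the gene with the largest rise. Its log2 values were 5.36, 5.36 and 5.26 on the control arrays and 6.14, 5.97 and 6.20 on the melatonin arrays in HGC-27 and 5.41, 5.37 and 5.24 on the control arrays and 5.97, 5.97 and 6.0 on the melatonin arrays in Huh-7. The rises were 0.78 ± 0.067 (adjusted p = 4.31e-05) and 0.64 ± 0.058 (adjusted p = 2.95e-05), and its values in HCT-8 cells and HepG2 were 0.13 ± 0.052 (adjusted p = 0.0898) and 0.23 ± 0.082 (adjusted p = 0.17). DSN1, another subunit of that complex, was lower in HCT-8 cells (-0.42 ± 0.055) and Huh-7 (-0.24 ± 0.062).

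**Figure D4:**
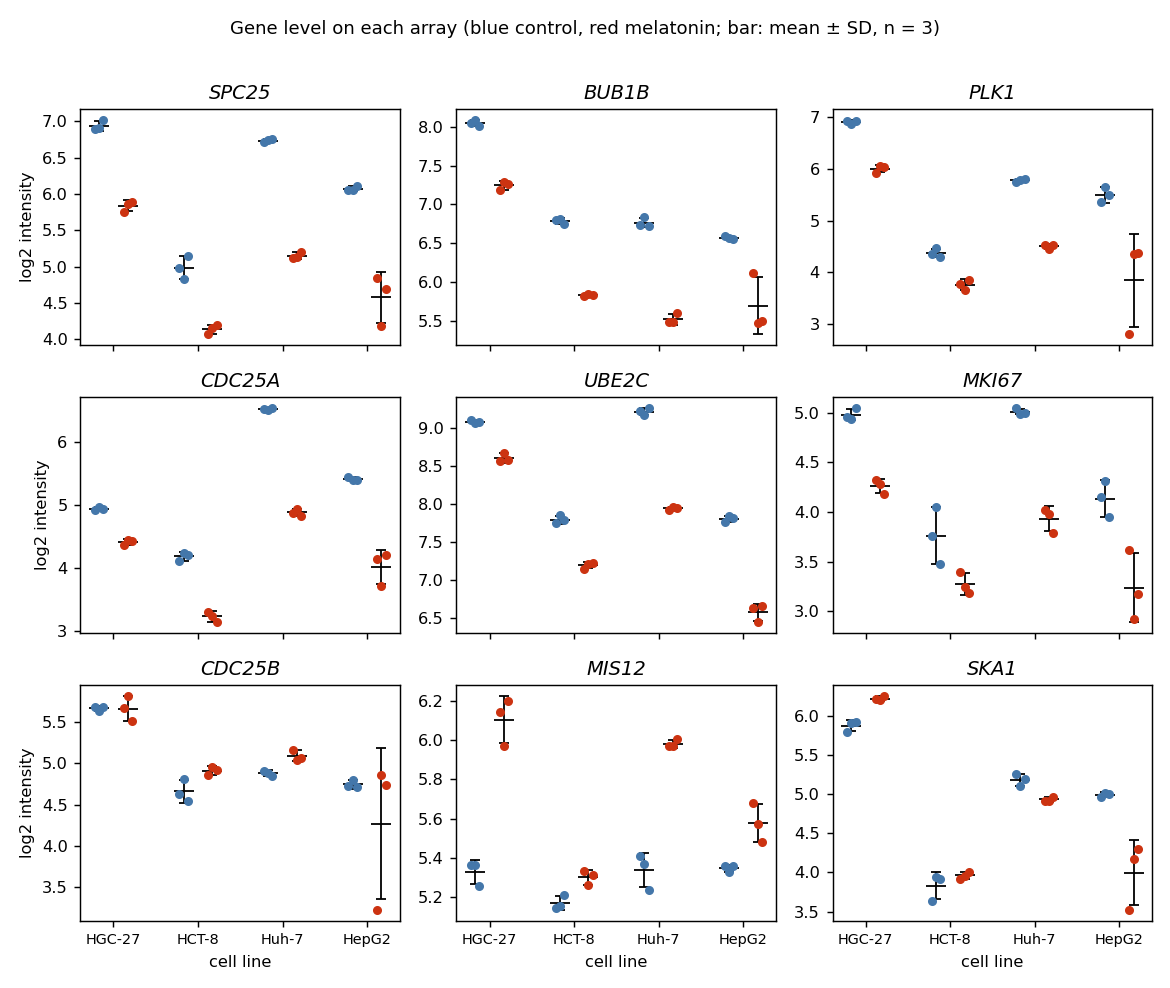
Log2 intensity of 9 genes on each array (points), by cell line, blue for control and red for melatonin, with the mean and SD of 3 arrays as bars. SPC25, BUB1B, PLK1, CDC25A, UBE2C and MKI67 were lower on every melatonin array of every line, MIS12 was higher on every melatonin array, and one HepG2 array of CDC25B lies far below the others at 3.22.

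All 5 spindle checkpoint genes were lower in the gastric, colorectal and Huh-7 lines, and 1 of 5 in HepG2 (5 without melatonin replicate 1). BUB1B, which encodes BubR1 of the complex that inhibits anaphase and whose printed promoter holds a lone CHR, had 8.05, 8.09 and 8.01 on the control arrays and 7.18, 7.29 and 7.26 on the melatonin arrays in HGC-27. In HCT-8 BUB1B had 6.80, 6.81 and 6.75 on the control arrays and 5.82, 5.84 and 5.84 on the melatonin arrays. In Huh-7 it had 6.74, 6.83 and 6.72 on the control arrays and 5.48, 5.48 and 5.60 on the melatonin arrays. The arrays of a group lay close together in these lines, and melatonin and control did not overlap. In HepG2 BUB1B had 6.59, 6.57 and 6.55 on the control arrays and 6.11, 5.47 and 5.50 on the melatonin arrays, with replicate 1 nearest to the controls. Its log2 fold changes were -0.81 ± 0.048 in HGC-27, -0.95 ± 0.050 in HCT-8 cells, -1.24 ± 0.058 in Huh-7 and -0.88 ± 0.18 in HepG2 (adjusted p = 7.35e-06, 1.54e-05, 9.33e-07 and 0.0434), and without that array -1.09 ± 0.058 (adjusted p = 3.32e-05) in HepG2. MAD2L1, which encodes the checkpoint protein MAD2, fell by 0.59 in HGC-27, 0.52 in HCT-8 cells and 0.81 in Huh-7 (adjusted p = 1.43e-05, 0.000619 and 7.43e-06). Its HepG2 value was -0.43 ± 0.16 (adjusted p = 0.193), or -0.60 ± 0.069 (adjusted p = 0.000515) without melatonin replicate 1. BUB1, the kinase that marks unattached kinetochores, had the smallest mean change of the group, at -0.37 ± 0.042 in HGC-27, -0.28 ± 0.057 in HCT-8 cells, -0.67 ± 0.049 in Huh-7 and -0.29 ± 0.17 in HepG2, where it was not called (adjusted p = 0.387) and, without melatonin replicate 1, had -0.48 ± 0.064 (adjusted p = 0.000937). BUB3, the adaptor that brings BUB1 and BubR1 to KNL1, was at -0.53 ± 0.043 in HGC-27, -0.46 ± 0.052 in HCT-8 cells, -0.53 ± 0.046 in Huh-7 and -0.24 ± 0.14 in HepG2, and TTK, the kinase that starts the signal, at -0.49 ± 0.043 in HGC-27, -0.20 ± 0.063 in HCT-8 cells, -0.55 ± 0.055 in Huh-7 and -0.51 ± 0.19 in HepG2. Neither was called in HepG2 on all arrays, and without melatonin replicate 1 BUB3 had -0.38 ± 0.068 (adjusted p = 0.0037) and TTK -0.73 ± 0.060 (adjusted p = 0.000135).

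All 7 genes of the mitotic kinases and the chromosomal passenger complex were lower in the gastric, colorectal and Huh-7 lines. In HepG2, 3 were lower (AURKA, PLK4 and NEK2), and 6 without melatonin replicate 1. PLK1, the polo-like kinase needed for spindle assembly and mitotic exit, with 2 CHR matches and a CCAAT box in its printed promoter, had 6.93, 6.86 and 6.93 on the control arrays and 5.92, 6.05 and 6.04 on the melatonin arrays in HGC-27. In HCT-8 PLK1 had 4.35, 4.47 and 4.31 on the control arrays and 3.78, 3.65 and 3.86 on the melatonin arrays. In Huh-7 it had 5.76, 5.78 and 5.81 on the control arrays and 4.53, 4.45 and 4.54 on the melatonin arrays. Each of these falls was larger than the range of the arrays within a group. In HepG2 the values were 5.35, 5.65 and 5.49 on the control arrays and 2.81, 4.35 and 4.38 on the melatonin arrays, all melatonin arrays below the controls and replicate 1 far below the other 2. The log2 fold changes of PLK1 were -0.90 ± 0.051 in HGC-27, -0.61 ± 0.071 in HCT-8 cells, -1.27 ± 0.050 in Huh-7 and -1.65 ± 0.43 in HepG2 (adjusted p = 6.17e-06, 0.000339, 4.37e-07 and 0.0769), and -1.13 ± 0.089 (adjusted p = 0.000121) in HepG2 without that array.

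CDCA8, which encodes borealin of the passenger complex, was likewise lowest on HepG2 melatonin replicate 1. In Huh-7 CDCA8 had 6.91, 6.82 and 6.82 on the control arrays and 5.63, 5.60 and 5.51 on the melatonin arrays, and in HepG2 5.46, 5.67 and 5.80 on the control arrays and 2.76, 4.74 and 4.76 on the melatonin arrays. Its log2 fold changes were -0.54 ± 0.045 in HGC-27, -0.45 ± 0.066 in HCT-8 cells, -1.27 ± 0.055 in Huh-7 and -1.56 ± 0.55 in HepG2 (adjusted p = 3.47e-05, 0.00109, 6.86e-07 and 0.164), and -0.89 ± 0.099 (adjusted p = 0.000432) in HepG2 without melatonin replicate 1. INCENP, the scaffold of that complex, changed least in the group, at -0.39 ± 0.043 in HGC-27, -0.27 ± 0.066 in HCT-8 cells, -0.34 ± 0.055 in Huh-7 and -0.18 ± 0.11 in HepG2, and its HepG2 value did not pass the test with the array or without it (-0.13 ± 0.096). AURKB, the complex's kinase, was lower in HGC-27 (-0.35 ± 0.061), in HCT-8 cells (-0.39 ± 0.072) and Huh-7 (-1.30 ± 0.055), with -1.55 ± 0.43 (adjusted p = 0.0938) in HepG2, or -1.03 ± 0.11 (adjusted p = 0.000419) without melatonin replicate 1. AURKA, the kinase of the spindle poles, fell in all 4 lines, from 7.65 to 6.93 in HGC-27, 7.22 to 6.55 in HCT-8 cells, 8.79 to 7.56 in Huh-7 and 8.36 to 7.38 in HepG2 (group means). PLK4, the kinase that starts centriole duplication, fell by 0.28 in HCT-8 cells and 0.93 in Huh-7, and NEK2, which parts the centrosomes, by 0.28 in Huh-7 and 0.41 in HepG2.

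The 3 CDC25 phosphatases, which remove inhibitory phosphates from cyclin-dependent kinases, parted from each other. CDC25A, which acts at entry into S phase and into mitosis, had 4.92, 4.97 and 4.93 on the control arrays and 4.36, 4.44 and 4.43 on the melatonin arrays in HGC-27. In HCT-8 CDC25A had 4.11, 4.24 and 4.20 on the control arrays and 3.3, 3.24 and 3.14 on the melatonin arrays. In Huh-7 it had 6.52, 6.51 and 6.54 on the control arrays and 4.88, 4.94 and 4.83 on the melatonin arrays. Melatonin arrays were lower without overlap in each of these lines, with the Huh-7 controls the highest and the Huh-7 fall the deepest. In HepG2 CDC25A had 5.44, 5.39 and 5.40 on the control arrays and 4.15, 3.71 and 4.21 on the melatonin arrays. Its log2 fold changes were -0.53 ± 0.045 in HGC-27, -0.95 ± 0.064 in HCT-8 cells, -1.64 ± 0.051 in Huh-7 and -1.39 ± 0.14 in HepG2 (adjusted p = 3.73e-05, 3.42e-05, 1.95e-07 and 0.00749), a 1.45-fold fall in HGC-27 and 3.11-fold in Huh-7. CDC25C, which acts at mitotic entry, was lower in HCT-8 cells, Huh-7 and HepG2 (-0.21 ± 0.053, -0.37 ± 0.051 and -0.62 ± 0.12, adjusted p = 0.0151, 0.000342 and 0.0363), and in HGC-27 its value was -0.0013 ± 0.051 (adjusted p = 0.989).

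CDC25B, thought to start mitotic entry at the centrosome, rose in HCT-8 cells and Huh-7. Its values were 4.63, 4.81 and 4.54 on the control arrays and 4.86, 4.96 and 4.92 on the melatonin arrays in HCT-8 cells. In Huh-7 they were 4.91, 4.88 and 4.85 on the control arrays and 5.17, 5.04 and 5.07 on the melatonin arrays. In HepG2 they were 4.72, 4.80 and 4.71 on the control arrays and 3.22, 4.85 and 4.74 on the melatonin arrays. The HCT-8 and Huh-7 melatonin arrays were all above the controls by a narrow margin, and in HepG2 replicate 1 alone was low. CDC25B had log2 fold changes of -0.0012 ± 0.074 in HGC-27, 0.25 ± 0.075 in HCT-8 cells, 0.21 ± 0.054 in Huh-7 and -0.47 ± 0.43 in HepG2 (adjusted p = 0.993, 0.0343, 0.011 and 0.58), and 0.051 ± 0.067 (adjusted p = 0.646) in HepG2 without melatonin replicate 1. The HCT-8 rise had an adjusted p of 0.12 by the methods' t-test, 0.0966 after a further quantile normalization, and 0.0538 to 0.11 with any one HCT-8 array left out but control replicate 2. The Huh-7 rise had 0.432 after the spike-in centring, and both rises were lost in the fit of all 24 arrays (adjusted p = 0.553 and 0.537).

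Of the anaphase and cohesion genes, 4 of 5 were lower in HGC-27 and in HCT-8 cells, 5 in Huh-7 and 1 in HepG2 (5 without melatonin replicate 1). UBE2C, the ubiquitin-conjugating enzyme of the anaphase-promoting complex, had 9.22, 9.17 and 9.26 on the control arrays and 7.92, 7.96 and 7.95 on the melatonin arrays in Huh-7. In HepG2 UBE2C had 7.76, 7.84 and 7.81 on the control arrays and 6.62, 6.45 and 6.65 on the melatonin arrays. The 3 HepG2 melatonin arrays lay close together here, unlike for most of the set. The log2 fold changes of UBE2C were -0.48 ± 0.047 in HGC-27, -0.60 ± 0.055 in HCT-8 cells, -1.27 ± 0.049 in Huh-7 and -1.23 ± 0.088 in HepG2 (adjusted p = 8.38e-05, 0.000117, 4.06e-07 and 0.00384), and without melatonin replicate 1 the HepG2 value was -1.25 ± 0.077 (adjusted p = 5.01e-05). ESPL1, which encodes separase, the protease that cuts cohesin, fell by 0.58 in HGC-27, 0.36 in HCT-8 cells and 0.64 in Huh-7 (adjusted p = 0.00012, 0.00491 and 6.53e-05), with -0.27 ± 0.14 (adjusted p = 0.349) in HepG2, or -0.42 ± 0.071 (adjusted p = 0.00303) without melatonin replicate 1. SGO2, a shugoshin that guards centromeric cohesin, was at -0.36 ± 0.067 in HGC-27, -0.32 ± 0.060 in HCT-8 cells, -0.39 ± 0.064 in Huh-7 and 0.030 ± 0.40 in HepG2 and, without HepG2 melatonin replicate 1, at -0.45 ± 0.086 (adjusted p = 0.00555). CDC20, which activates the anaphase-promoting complex, was lower in the gastric, colorectal and Huh-7 lines (-0.30 ± 0.053, -0.47 ± 0.066 and -0.24 ± 0.046), and SGO1, the other shugoshin, in Huh-7 (-0.88 ± 0.071).

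All 6 spindle and cytokinesis genes were lower in HGC-27 and in Huh-7, 4 in HCT-8 cells and 3 in HepG2 (6 without melatonin replicate 1). PRC1, which bundles the microtubules of the central spindle, had log2 fold changes of -0.54 ± 0.043 in HGC-27, -0.56 ± 0.053 in HCT-8 cells, -1.01 ± 0.066 in Huh-7 and -1.21 ± 0.37 in HepG2 (adjusted p = 2.97e-05, 0.000134, 5.09e-06 and 0.115). Its HepG2 values were 4.73, 4.87 and 4.68 on the control arrays and 2.66, 4.02 and 3.96 on the melatonin arrays, and without the low replicate 1 the fold change was -0.77 ± 0.074 (adjusted p = 0.000243). ECT2, the exchange factor that turns on RhoA at the cleavage furrow, was called in all 4 lines with fold changes that spanned the narrow range from -0.80 to -0.68. Its values were 5.92, 6.0 and 5.92 on the control arrays and 5.26, 5.18 and 5.20 on the melatonin arrays in HGC-27 and 5.66, 5.53 and 5.52 on the control arrays and 5.0, 4.79 and 4.83 on the melatonin arrays in HepG2. For ECT2 the log2 fold changes were -0.74 ± 0.046 in HGC-27, -0.68 ± 0.063 in HCT-8 cells, -0.80 ± 0.049 in Huh-7 and -0.70 ± 0.093 in HepG2 (adjusted p = 8.86e-06, 0.000123, 3.46e-06 and 0.0126). ANLN, the anillin of the contractile ring, was at -0.30 ± 0.050 in HGC-27, -0.17 ± 0.061 in HCT-8 cells, -0.69 ± 0.066 in Huh-7 and -0.60 ± 0.081 in HepG2, lower in all lines but HCT-8 (adjusted p = 0.0706). TPX2, which activates AURKA on the spindle, fell in all 4 lines, by 0.44 in HGC-27 and 0.81 in Huh-7. NUSAP1 and ASPM, of the spindle and its poles, fell by 0.68 and 0.88 in Huh-7.

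Of MKI67, TOP2A and FOXM1, 2 were lower in HGC-27, 1 in HCT-8 cells, 3 in Huh-7 and 2 in HepG2 (3 without melatonin replicate 1). MKI67, which encodes the Ki-67 protein used to count cycling cells in tissue sections, had 4.95, 4.94 and 5.05 on the control arrays and 4.32, 4.29 and 4.18 on the melatonin arrays in HGC-27. In HCT-8 MKI67 had 3.76, 4.05 and 3.48 on the control arrays and 3.40, 3.24 and 3.18 on the melatonin arrays. In Huh-7 it had 5.05, 4.99 and 5.0 on the control arrays and 4.02, 3.98 and 3.79 on the melatonin arrays. The HCT-8 controls were widely spread, the lowest of them close to the highest melatonin array, and the other 2 lines were tight. In HepG2 MKI67 had 4.15, 4.31 and 3.94 on the control arrays and 3.61, 2.93 and 3.18 on the melatonin arrays. Its log2 fold changes were -0.72 ± 0.055 in HGC-27, -0.49 ± 0.13 in HCT-8 cells, -1.08 ± 0.069 in Huh-7 and -0.90 ± 0.20 in HepG2 (adjusted p = 2.29e-05, 0.0203, 4.29e-06 and 0.0477). TOP2A, the topoisomerase that untangles sister DNA, was at -0.18 ± 0.045 in HGC-27, -0.11 ± 0.067 in HCT-8 cells, -0.71 ± 0.056 in Huh-7 and -0.73 ± 0.12 in HepG2, with no call in HCT-8 cells (adjusted p = 0.252). FOXM1, a transcription factor for late cell cycle genes, was lower in Huh-7, at -0.33 ± 0.097 (adjusted p = 0.0199), and had 0.098 ± 0.12 (adjusted p = 0.578) in HGC-27, -0.30 ± 0.11 (adjusted p = 0.0684) in HCT-8 cells and -0.46 ± 0.13 (adjusted p = 0.104) in HepG2, where it had -0.37 ± 0.11 (adjusted p = 0.031) without melatonin replicate 1. The Huh-7 call of FOXM1 was lost by the methods' t-test (adjusted p = 0.0991), in the fit of all 24 arrays (0.058) and without Huh-7 control replicate 2 or 3 or melatonin replicate 2 or 3 (0.0606 to 0.0692).

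The lines differed in how far single genes fell. An F test of the line-by-treatment terms over the 24 arrays called 25 of the 50 genes at an adjusted p under 0.05, where 34.3% of all genes were called. This test takes 1 spread per gene for all lines, while the median SD of the mitotic genes was 0.31 among the HepG2 melatonin arrays and 0.038 to 0.082 in the other groups. Without HepG2 melatonin replicate 1 it called 40 against 53.7% of all genes, and in the gastric, colorectal and Huh-7 lines alone 38 against 46.2%. UBE2C (adjusted p = 6.89e-08), HJURP (2.45e-06) and CDC25A (3.66e-06) had the smallest adjusted p among the genes named by rule, all with deeper falls in the liver lines. SKA1 (3.72e-05), CENPN (0.00139) and CENPH (0.0125) had fold changes of both signs, and for CENPH the adjusted p was 0.261 after the spike-in centring. For ECT2 the adjusted p was 0.592 and for INCENP 0.319. The fold changes of the 50 genes in 2 lines correlated with a Pearson r of 0.43 to 0.71 over the 6 pairs of lines, beside 0.425 to 0.592 over all genes, a description across genes, which are not independent replicates. Huh-7 and HepG2 gave 0.71, or 0.84 without melatonin replicate 1.

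The HepG2 melatonin arrays split the genes. Against the mean of replicates 2 and 3, replicate 1 was lower by at least 0.5 log2 units for 9 genes and higher by at least 0.5 for 15. It was lowest for CDCA8 (-1.99), CDC25B (-1.57), PLK1 (-1.56), AURKB (-1.55), CDC20 (-1.51) and PRC1 (-1.33). It was highest for SGO2 (1.43), CENPF (1.30), NUF2 (1.15) and CENPE (1.0). On replicate 1, 14 of the 50 genes stood above the control mean. On replicates 2 and 3, 43 of the 50 genes were below every control. Without replicate 1, the HepG2 log2 fold changes of kinetochore genes named by rule were -0.82 ± 0.085 for HJURP, -1.63 ± 0.13 for SPC25, -1.14 ± 0.12 for ZWINT and -0.76 ± 0.065 for SKA1, all still called lower. CENPN (adjusted p = 0.281) and CENPH (adjusted p = 0.896) were not called with that array or without it, at -0.12 ± 0.072 and 0.022 ± 0.090 without it. The calls of CDC25A at -1.45 ± 0.13, CDC25C at -0.51 ± 0.074, ECT2 at -0.76 ± 0.068, ANLN at -0.56 ± 0.066, MKI67 at -1.08 ± 0.12 and TOP2A at -0.63 ± 0.079 also stood without replicate 1. For UBE2C, ANLN, PLK4 and NEK2, which were called on all arrays, the 3 melatonin arrays came close together. That held for the mean of probe sets. Fitted singly with limma on all arrays, no probe set of PLK4 (adjusted p = 0.0812 and 0.329) or NEK2 (0.224 to 0.912) was called in HepG2.

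**Figure D5:**
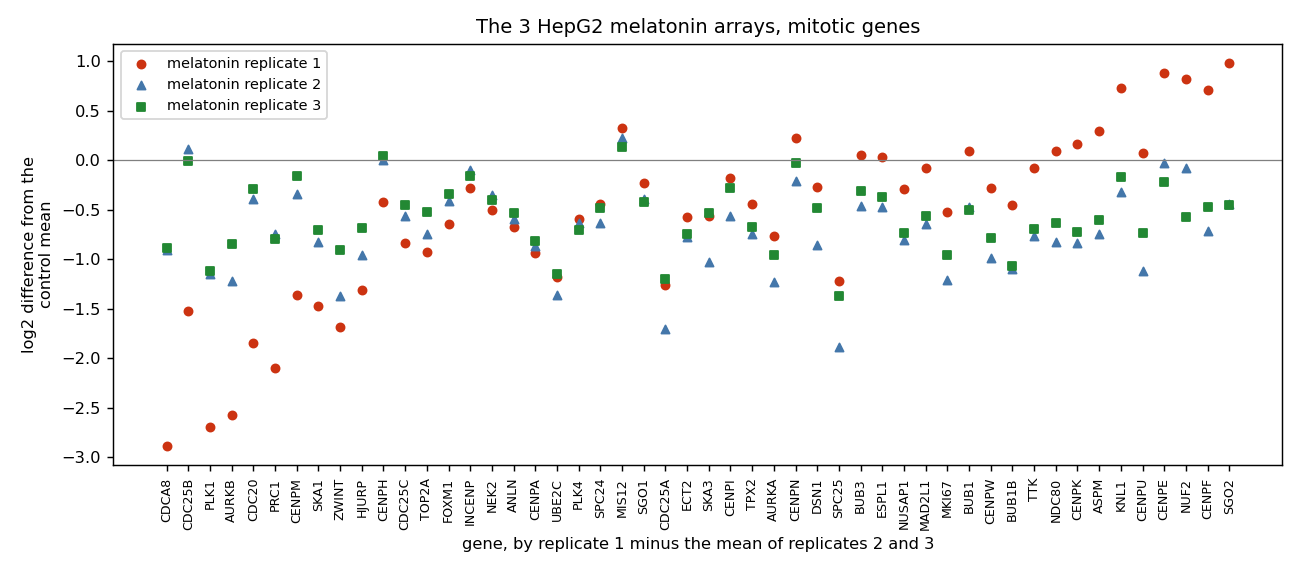
Log2 difference of each mitotic gene from the HepG2 control mean on the 3 HepG2 melatonin arrays (replicate 1 red circles, 2 blue triangles, 3 green squares), ordered by replicate 1 minus the mean of the others. Replicate 1 runs from far below the others at CDCA8 (-1.99) to far above them at SGO2 (1.43), while replicates 2 and 3 keep together.

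Among 83 measured genes of other mitotic complexes, a smaller share was lower when all lists were pooled, 47.0% in HGC-27, 50.6% in HCT-8 cells, 63.9% in Huh-7 and 10.8% in HepG2, against 72.0%, 72.0%, 88.0% and 38.0% of the kinetochore and mitotic set. Of these, 39 were lower and 14 higher in HGC-27, 42 and 9 in HCT-8 cells, 53 and 9 in Huh-7, and 9 and 1 in HepG2 (44 and 6 without melatonin replicate 1). Over all genes, 18.6% were lower and 20.9% higher in HGC-27, and 15.0% and 16.6% in HCT-8 cells. In Huh-7 the shares of all genes were 27.4% and 23.8%, and in HepG2 3.68% and 3.87% (14.9% and 16.5% without melatonin replicate 1). The condensin genes, whose products compact chromosomes, had a larger share than the kinetochore set outside HepG2, with 7 of 8 lower in HGC-27 and in HCT-8 cells, 8 in Huh-7 and 1 in HepG2 (8 without melatonin replicate 1). NCAPG, a condensin subunit, was at -0.72 ± 0.067 in HGC-27, -0.77 ± 0.073 in HCT-8 cells, -1.52 ± 0.048 in Huh-7 and -1.21 ± 0.15 in HepG2. NCAPD3, of the other condensin complex, was at -0.92 ± 0.066 in HGC-27, -0.62 ± 0.075 in HCT-8 cells, -1.43 ± 0.084 in Huh-7 and -0.51 ± 0.21 in HepG2. TRIP13, the ATPase that takes apart checkpoint complexes with MAD2, fell further in Huh-7 than any gene of the kinetochore set did, from 7.34, 7.22 and 7.33 to 5.19, 5.27 and 5.12, a log2 fold change of -2.10 ± 0.060 (adjusted p = 1.44e-07). PMF1, a partner of MIS12 and DSN1, was lower in the gastric, colorectal and Huh-7 lines (-0.79 ± 0.056, -0.67 ± 0.075 and -1.17 ± 0.071). The cohesin list was mixed, with 3 higher and 6 lower of 14 in HGC-27, 3 and 3 in HCT-8 cells, 4 and 6 in Huh-7 and no call in HepG2 (2 and 2 without melatonin replicate 1). Its lower share was 42.9% in HGC-27 and in Huh-7 and 21.4% in HCT-8 cells. The HCT-8 share and the higher shares lay near those of all genes. ESCO1, an acetyltransferase of cohesin, rose in HGC-27 (0.68 ± 0.080), in HCT-8 cells (0.81 ± 0.061) and Huh-7 (0.81 ± 0.060), whereas CDCA5, which encodes sororin, fell in the same lines by 0.28, 0.59 and 0.92.

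Of 17 genes of the anaphase-promoting complex and its regulators, 7 were lower and 3 higher in HGC-27, 6 and 4 in HCT-8 cells, 7 and 2 in Huh-7, and 1 and 1 in HepG2 (7 and 2 without melatonin replicate 1). Beside these counts and those of the next lists, 18.6% of all genes were lower and 20.9% higher in HGC-27. The shares of all genes were 15.0% and 16.6% in HCT-8 cells, 27.4% and 23.8% in Huh-7, and 3.68% and 3.87% in HepG2 (14.9% and 16.5% without melatonin replicate 1). FBXO5, which encodes the inhibitor EMI1, was at -0.61 ± 0.058 in HGC-27, -0.55 ± 0.065 in HCT-8 cells, -1.19 ± 0.047 in Huh-7 and -1.17 ± 0.17 in HepG2, and the subunit gene ANAPC15 at -1.05 ± 0.072 in HGC-27, -0.68 ± 0.12 in HCT-8 cells, -1.15 ± 0.088 in Huh-7 and -0.63 ± 0.20 in HepG2. In augmin, the complex that branches spindle microtubules, 5 of 8 genes were lower and 1 higher in HGC-27, 4 and 0 in HCT-8 cells, 7 and 1 in Huh-7, and 1 and 0 in HepG2 (6 and 0 without melatonin replicate 1). The higher gene was HAUS4, named after its values were seen, at 0.27 ± 0.054 in HGC-27 and 0.79 ± 0.060 in Huh-7. HAUS7 was at -0.50 ± 0.051 in HGC-27, -0.89 ± 0.092 in HCT-8 cells, -1.34 ± 0.072 in Huh-7 and -1.24 ± 0.40 in HepG2 and HAUS8 at -0.31 ± 0.081 in HGC-27, -0.61 ± 0.058 in HCT-8 cells, -0.98 ± 0.054 in Huh-7 and -0.77 ± 0.21 in HepG2. Of 9 regulators that act on late cell cycle promoters (the MuvB core, its partners and NF-Y), 3 were lower and 1 higher in HGC-27, 3 and 1 in HCT-8 cells, 6 and 1 in Huh-7, and 1 and 0 in HepG2 (4 and 0 without melatonin replicate 1). The higher gene was LIN37, a subunit of the MuvB core named after its values were seen, at 0.41 ± 0.054 in HGC-27, 0.49 ± 0.059 in HCT-8 cells and 0.87 ± 0.085 in Huh-7. MYBL2, which encodes B-MYB, was lower in HCT-8 cells (-0.55 ± 0.065) and Huh-7 (-0.59 ± 0.047), with -0.044 ± 0.059 (adjusted p = 0.607) in HGC-27 and -1.10 ± 0.45 (adjusted p = 0.222) in HepG2. RBBP4, a histone-binding subunit of MuvB, fell by 0.54 in HGC-27, 0.70 in HCT-8 cells and 0.81 in Huh-7. Without HepG2 melatonin replicate 1, the HepG2 log2 fold changes of the genes of these lists named by rule were -1.42 ± 0.11 for TRIP13, -1.32 ± 0.11 for NCAPG and -1.35 ± 0.080 for FBXO5, which were also called lower with it. Calls were gained without it by PMF1 (-0.52 ± 0.078, against -0.89 ± 0.31 on all arrays), NCAPD3 (-0.75 ± 0.066), CDCA5 (-0.84 ± 0.10, against -1.13 ± 0.26), ANAPC15 (-0.85 ± 0.090), HAUS7 (-0.75 ± 0.079), HAUS8 (-0.95 ± 0.15), MYBL2 (-0.56 ± 0.097) and RBBP4 (-0.47 ± 0.087, against -0.26 ± 0.20), and a call of higher by ESCO1 (0.43 ± 0.070, against 0.73 ± 0.25).

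Median fold changes were negative for genes with a CHR and for those without. The 29 genes with a CHR in a window had median log2 fold changes of -0.39 in HGC-27, -0.36 in HCT-8 cells, -0.80 in Huh-7 and -0.64 in HepG2, with 24, 20, 26 and 13 of them lower. The 12 genes with a window and no CHR had -0.29, -0.40, -0.77 and -0.49, with 7, 9, 11 and 3 lower. The 9 genes without a window, among them AURKA, UBE2C and TPX2, had -0.44, -0.46, -0.55 and -0.51. CDC25A, without a CHR, had -1.64 in Huh-7 and SPC25, with one, -1.58, while CDC25B, also with one, rose there. These are matches of letters and counts, and no test was made of them.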

How the data were processed

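RNA of 24 cultures (4 human cell lines, 3 control and 3 melatonin cultures each) was hybridised to customized PrimeView 3′ expression arrays, 1 array per culture, and the number of arrays limits the precision. The authors summarised probes by robust multichip average (RMA, version not given in the sources used here) and deposited log2 values for 49495 probe sets. Array medians hardly varied inside a line but differed across lines, so each line was tested on its own. Probe sets with 1 gene symbol in the platform annotation (45284, of which 6 control probe sets were dropped) were averaged per gene, giving 18244 genes, while 1333 probe sets with several symbols and 2878 with none were left out. Melatonin minus control was fitted within each line with limma 3.58.1 (R 4.3.3) and Benjamini-Hochberg adjustment over all genes at 0.05, and the differences between lines as an F test over all 24 arrays. The code was tested on simulated data. Alternatives covered the probe set rule, filtering, scaling, the fit, array weights, a fold limit and each array left out. The gene lists and members were chosen with earlier results of these data known. Values are named for the 2 most and the 1 least changed gene of each role group by mean absolute log2 fold change, for genes with opposite calls and for the 2 most changed of each other list, and the other members named were added after their values were seen. Promoter windows and motif shares came from RefSeq tables (GRCh38.p14) with python 3.11.15 and pandas 2.3.3. The p-values cover the spread between these cultures only.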

Additional observations from a re-analysis of the deposited data

Results flagged for a closer look

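The effect of melatonin differed between the 4 lines for 12 of the mitotic genes named by rule and 6 named from the other lists. The test was an F test of the line-by-treatment terms (limma, n = 3 arrays per group). It called 25 of the 50 mitotic genes and 34.3% of all genes. The named genes were picked by the size of their mean change or for opposite calls. The test takes the same spread for a gene in all lines. The median SD of the mitotic genes was 0.31 among the HepG2 melatonin arrays and 0.038 to 0.082 in the other groups. The adjusted p was 6.89e-08 for UBE2C, 2.45e-06 for HJURP, 3.66e-06 for CDC25A, 0.000305 for CENPW and 0.00291 for SPC25, all with the deepest fall in Huh-7. For ZWINT (0.000361), CDC25C (0.000744) and TOP2A (7.41e-05) the deepest fall was in HepG2, and for ANLN (0.00022) in Huh-7. CENPN (0.00139) rose in HGC-27 and was called in none of the other lines. SKA1 (3.72e-05) rose in HGC-27 and fell in Huh-7 and HepG2, and CENPH (0.0125) rose in Huh-7 and fell in HCT-8. From the other lists, TRIP13 (1.34e-05), NCAPG (0.000255), FBXO5 (0.00124), NCAPD3 (0.00352) and HAUS8 (0.0374) had the deepest fall in Huh-7, and CDCA5 (0.0209) had it in HepG2, where it was not called. A test of single genes for an outlying array within a group was not made, since each group held 3 arrays.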

How the results depend on the processing

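With 1 array left out, the count of lower mitotic genes moved by less than 1.5 times in the gastric, colorectal and Huh-7 lines and by more in HepG2, where 3 arrays a group and 1 array that stood apart limit the test. Centring on the 1 spike-in probe set gave 4323 changed genes, 17 mitotic genes lower and a median of -0.22 in HGC-27, 11 lower and a median of -0.16 in HCT-8 cells, 1 higher and a median of -0.85 in Huh-7, a median of -0.83 in HepG2, 5 genes lower in all 4 lines and 4156 genes that differed between lines. Centring on array medians gave medians of -0.45 in HGC-27 and -0.82 in Huh-7. The probe set with the highest mean in place of the mean of probe sets gave medians of -0.42 in HCT-8 cells and -0.77 in Huh-7 and 11 lower genes in HepG2. A further quantile normalization gave 0 higher genes in HCT-8 cells and a median of -0.74 in Huh-7. The fit of all 24 arrays gave 4345 changed genes in HGC-27, 0 higher mitotic genes in HCT-8 cells, and 5850 changed genes with 39 mitotic genes lower and 1 higher in HepG2. Array weights gave a median of -0.38 in HCT-8 cells, 6051 changed genes with 43 mitotic genes lower and 1 higher in HepG2, 30 lower in all 4 lines, and 10197 genes, 42 of them mitotic, that differed between lines. The methods' t-test gave 0 higher mitotic genes in HCT-8 cells, 533 changed genes with 5 mitotic genes lower in HepG2 and 4 lower in all 4 lines. A limit of 1.5-fold left 1312 changed genes with 10 mitotic genes lower and 1 higher in HGC-27, 830 with 13 and 0 in HCT-8 cells, 2946 with 1 higher in Huh-7, and 4 lower in all 4 lines. Without the HepG2 arrays 38 mitotic genes differed between lines. An E2F site was found in 3 genes within 200 bases before the start and, in a window from 100 bases before to 50 after it that was chosen after seeing the data, in 2, against 5 in the whole window. The causes were not tested.

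The replicate numbers of control and melatonin arrays were shared, but the deviations of same-numbered arrays correlated at only -0.041 to 0.136, so that they share a number only. With the replicate number as a block, 42 genes were called in HepG2 and 0 mitotic genes were lower in HepG2 or in all 4 lines.

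With 1 array left out in turn, the changed genes numbered 6278 to 6929 in HGC-27, 4232 to 5355 in HCT-8 cells, 8228 to 9040 in Huh-7 and 21 to 5721 in HepG2. The lower mitotic genes numbered 35 to 37, 33 to 38, 43 to 44 and 0 to 43, the higher ones 3 to 4 in HGC-27, 0 to 1 in HCT-8 cells, 3 in Huh-7 and 0 in HepG2, and those lower in all 4 lines 0 to 29. The medians ran from -0.39 to -0.35 in HGC-27, -0.41 to -0.37 in HCT-8 cells, -0.76 to -0.73 in Huh-7 and -0.67 to -0.52 in HepG2, and 5556 to 9789 genes, 21 to 40 of them mitotic, differed between lines.

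Some log2 fold changes near 0 changed sign. KNL1 was at -0.088 (highest probe set), -0.0065 (quantile) and -0.058 (median) in HGC-27, -0.037 (highest probe set) in HCT-8 cells, and -0.20 (highest probe set), -0.16 (spike-in) and -0.26 (weights) in HepG2. CDC25C was at 0.15 (spike-in) and 0.011 (weights) in HGC-27 and 0.025 (spike-in) in HCT-8 cells, the last against a called fall. CDC25B was at 0.041 (highest probe set) and 0.15 (spike-in) in HGC-27 and 0.052 (weights) in HepG2. FOXM1 was at -0.027 (highest probe set) and CENPH at 0.0010 (spike-in) in HGC-27, and CENPH at 0.010 (weights) in HepG2. CENPN was at 0.066 (spike-in) in HCT-8 cells and 0.014 (quantile) in HepG2, ANLN at 0.074 (spike-in) in HCT-8 cells and TOP2A at 0.030 (highest probe set) and 0.13 (spike-in) in HCT-8 cells. SGO2 in HepG2 was at -0.061 (highest probe set), -0.026 (median), -0.21 (spike-in) and -0.42 (weights). With 1 array left out in turn, the HGC-27 values ran from -0.012 to 0.043 for KNL1, -0.027 to 0.037 for CDC25C, -0.076 to 0.075 for CDC25B and -0.051 to 0.22 for FOXM1. Those of HepG2 ran from -0.12 to 0.10 for CENPN, -0.24 to 0.28 for KNL1, -0.76 to 0.051 for CDC25B, -0.45 to 0.27 for SGO2 and -0.21 to 0.022 for CENPH.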
